A study of Mus musculus with 3 samples.

Results

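Nuclear receptors are transcription factors, most of which are switched by small fat-soluble ligands. 10 of their genes that matter in macrophages were followed here: the orphan receptors Nr4a1, Nr4a2 and Nr4a3, the oxysterol receptors Nr1h2 (LXR beta) and Nr1h3 (LXR alpha), the fatty acid receptor Pparg, the retinoid receptors Rxra and Rara, the vitamin D receptor Vdr, and the glucocorticoid receptor Nr3c1. The genes were chosen by name, with earlier results of these data known. All 10 of them were among the 22238 genes listed in every library. Expression was measured by RNA-Seq in monocytes of the bone marrow (marrow monocytes), monocytes of the spinal cord (cord monocytes), and APCs (antigen-presenting cells) of the spinal cord. The cells came from female C57BL/6J mice of 10 to 12 weeks in which EAE, a model of multiple sclerosis, had been induced with MOG peptide in complete Freund's adjuvant and with pertussis toxin. No unimmunized mice and no genetic change entered these libraries, and cells were taken on days 14 to 15.

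Marrow monocytes were sorted as CD45+ CD11b+ Ly6Chi cells without Ly6G or CD11c. The gate of cord monocytes took CD45+ CD11b+ CD64+ Ly6Chi cells without Ly6G, and APCs carried the same markers except that Ly6C was low or absent. The APC gate takes any such cell, and the study reads its cells as derived from monocytes by the gate together with marker genes and flow cytometry. Spinal cord cells were pooled from 18 mice in 3 experiments and bone marrow cells from 13 mice in 2 experiments, which gave 1 library for each population. Thus no difference between populations has a replicate check, no test was possible, and every interval covers counting error only. Spinal cords were digested with collagenase D and DNase at 37 °C for 30 minutes and passed over a Percoll gradient, whereas bone marrow was flushed and enriched for monocytes with a kit. Tissue, isolation and gate cannot be told apart in a comparison of bone marrow with spinal cord. The source label of the APC library names bone marrow, while its title and tissue label name spinal cord, and the latter were used. The libraries held 33280643 estimated reads in marrow monocytes, 27283795 in cord monocytes and 28209589 in APCs.

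Several properties of the libraries moved with these populations. All 8 monocyte markers were over 3 TPM in every library, with a sum of 11610 TPM in marrow monocytes, 9573 in cord monocytes and 3786 in APCs. The 6 macrophage and dendritic cell markers summed to 811, 4834 and 11337 TPM in the same order. The 10 microglia markers summed to 15.5, 168 and 448 TPM, with Sall1 and Slc2a5 at 0 reads in marrow monocytes, and the sum in the APC library was the highest. The study gated on high CD45 to leave microglia out, but its text allows that a small number entered the APC population. From Tmem119, set beside a published profile of microglia, it gave a small upper estimate of their share. The 10 neutrophil markers summed to 7861 TPM in marrow monocytes but 1324 and 1390 TPM in the spinal cord libraries. S100a8 was the most abundant of them in each library. By the calls defined below, 6 were lower in cord monocytes than in marrow monocytes, but Cxcr2 and Mmp9 were higher (11.0% and 13.6% over all genes). In APCs, Ngp and Ltf were called higher than in cord monocytes and 0 were lower (1.94% and 1.66% over all genes). T cell markers (8 genes) summed to 0.597, 57.8 and 86.8 TPM, endothelial markers (8 genes) to 18.4, 96.6 and 61.3, and erythroid markers (5 genes) to 0.318, 70.0 and 23.0. Markers of CNS-associated macrophages (6 genes) summed to 15.7, 36.8 and 51.1 TPM, with 2, 3 and 3 genes over 3 TPM and Lyve1 at 0 reads in marrow monocytes and APCs. Those of conventional dendritic cells (6 genes) summed to 40.8, 21.3 and 28.3 TPM, with 1, 3 and 5 genes over 3 TPM. B cell markers summed to 3.52 to 8.69 TPM and neural markers to 44.6 to 75.2 TPM. The part of these cells in the receptor values below was not tested. In bulk RNA, fewer cells of a type and less RNA per cell cannot be told apart.

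NR4A receptors are orphan receptors whose ligand pocket is filled by bulky side chains. They are induced within minutes to hours by many stimuli, so their activity follows largely from their transcript level. LXRs, PPAR gamma, the vitamin D receptor and RAR alpha bind DNA as partners of an RXR and answer to oxysterols, fatty acid derivatives, active vitamin D and retinoic acid. In macrophages LXRs govern cholesterol efflux, PPAR gamma governs fat handling, and the glucocorticoid receptor, which acts without RXR, restrains inflammatory genes.

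A pair of quantities is given below. A level is TPM, a share of the transcripts that is divided by gene length and was rescaled to the same sum over the 22238 common genes, so levels of different genes can be compared within a library. A difference is the log2 ratio of reads between a pair of libraries with its 98% interval. Genes were called when the whole interval was past 2-fold and TPM was over 3 in at least 1 library of the pair. The APC library was quantified by the authors on another set of transcripts, listing 22242 genes against 54432 in each monocyte library. The ratio of reads per effective length was therefore computed as well, and it is given beside a named gene where it changed a call or moved a ratio by more than 1.5 times.

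In cord monocytes, 6 of the 10 receptors were called higher than in marrow monocytes and 0 were called lower. The 6 were Nr4a1, Nr4a2, Nr4a3, Nr1h3, Pparg and Vdr. Over all 10072 genes active in this comparison, 13.6% were called higher and 11.0% lower. The median log2 ratio was 3.67 over the receptors and -0.17 over all active genes. Nr1h2 had a log2 ratio of 0.61, and Rxra, Rara and Nr3c1 lay between -0.42 and -0.24. Between cord monocytes and APCs, 0 receptors were called higher and Rara alone was called lower. The background there was 1.94% higher and 1.66% lower over 9734 active genes, and it was 2.38% and 3.33% by reads per effective length, where Nr4a2 was called lower in place of Rara. The median was -0.14 over the receptors and -0.03 over all active genes. APCs against marrow monocytes gave 6 receptors higher and 1 lower, beside 14.0% and 11.7% of 10190 genes. This comparison shares its libraries with the comparisons above and is no separate evidence.

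**Figure D1:**
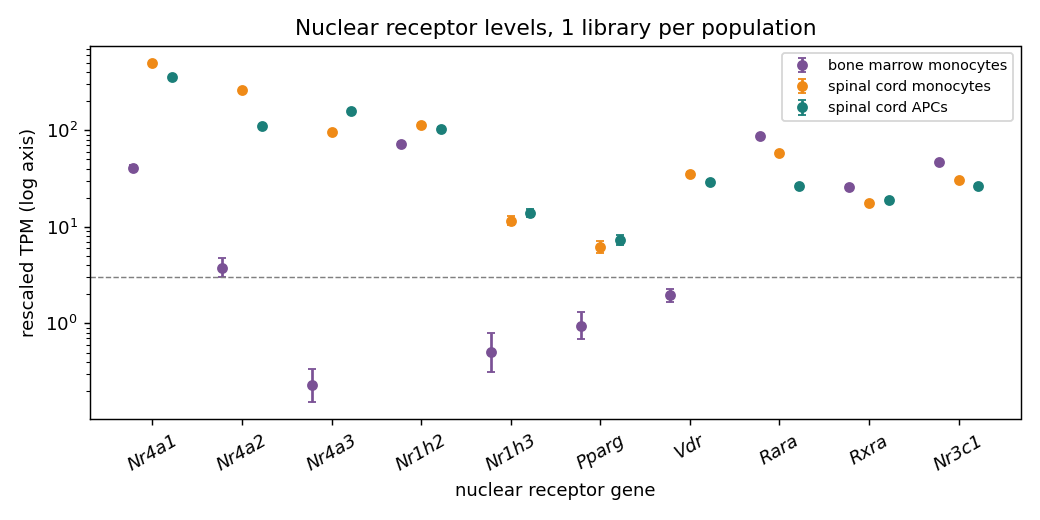
Levels of the 10 nuclear receptor genes in the 3 libraries, in rescaled TPM on a log axis, with 95% Wilson intervals of the counting error. The dashed line marks 3 TPM. In marrow monocytes Vdr, Pparg, Nr1h3 and Nr4a3 sit below the line, whereas all 10 genes sit above it in both spinal cord libraries.

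**Figure D2:**
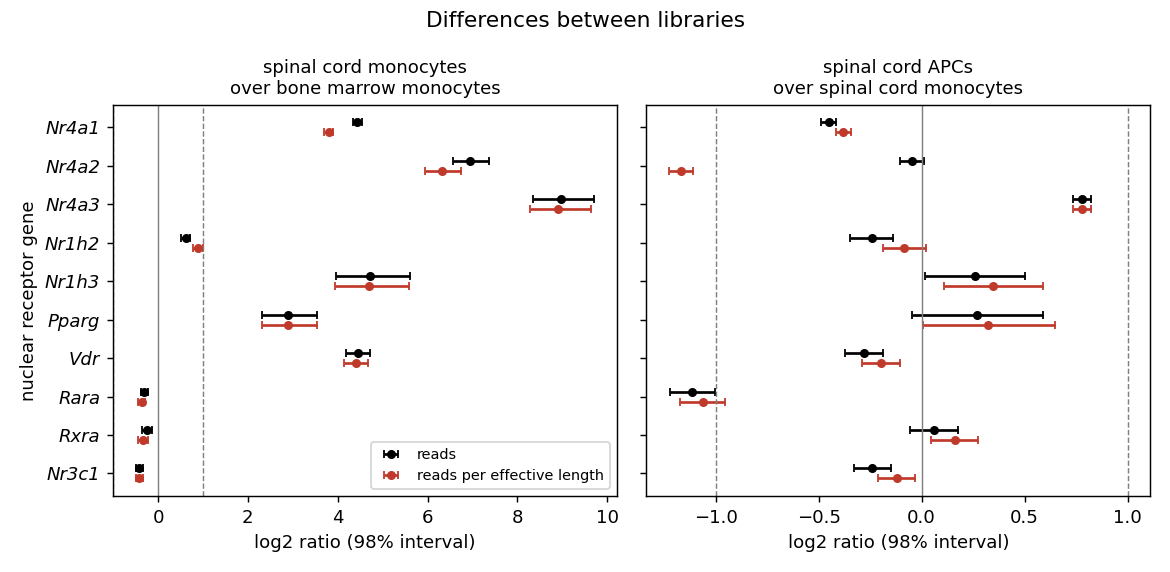
Log2 ratios of the 10 genes with 98% intervals, for cord monocytes over marrow monocytes (left) and APCs over cord monocytes (right), by reads (black) and by reads per effective length (red); dashed lines mark a 2-fold change, and the panels have different scales. At left 6 genes lie beyond 2-fold, and at right Rara lies just beyond it by reads and Nr4a2 by reads per effective length.

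Nr4a1, Nr4a2 and Nr4a3 lie on chromosome 15 (101254269 to 101274795, plus strand), chromosome 2 (57106830 to 57124003, minus strand) and chromosome 4 (48045153 to 48086447, plus strand) of GRCm38. These 3 genes were picked for display as the NR4A genes, with their higher levels in cord monocytes known. Nr1h3, Pparg and Vdr were also called higher there, and their windows are not shown. The 300 bases around their RefSeq start (250 before and 50 after, GRCm38.p6) are shown, 5′ to 3′ on the strand of the gene. The windows lie at chr15:101266596-101266895, chr2:57123954-57124253 and chr4:48045055-48045354. Capitals mark the half-site of the cyclic AMP response element, TGACG on either strand (CGTCA as read here), which CREB family factors bind.
Nr4a1: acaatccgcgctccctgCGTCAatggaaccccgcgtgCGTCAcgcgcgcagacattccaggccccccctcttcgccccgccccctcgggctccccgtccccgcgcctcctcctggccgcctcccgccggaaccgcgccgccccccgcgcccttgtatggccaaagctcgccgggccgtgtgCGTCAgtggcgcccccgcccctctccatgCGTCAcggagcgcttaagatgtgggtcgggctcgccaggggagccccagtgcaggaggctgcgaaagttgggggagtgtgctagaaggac
Nr4a2: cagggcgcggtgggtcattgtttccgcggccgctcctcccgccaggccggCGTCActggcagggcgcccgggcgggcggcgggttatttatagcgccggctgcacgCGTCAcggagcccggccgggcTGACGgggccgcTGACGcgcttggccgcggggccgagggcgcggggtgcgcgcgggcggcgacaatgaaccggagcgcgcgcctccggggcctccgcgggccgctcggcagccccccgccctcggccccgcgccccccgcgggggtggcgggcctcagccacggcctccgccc
Nr4a3: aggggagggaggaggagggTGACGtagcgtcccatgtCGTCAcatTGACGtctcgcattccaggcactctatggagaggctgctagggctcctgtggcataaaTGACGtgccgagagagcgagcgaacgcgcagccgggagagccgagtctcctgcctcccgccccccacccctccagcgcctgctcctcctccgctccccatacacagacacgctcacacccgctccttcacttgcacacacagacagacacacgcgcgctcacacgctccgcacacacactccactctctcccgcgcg
Each of the 3 windows held 4 half-sites. In Nr4a1 they began at -233, -213, -69 and -40 relative to the start, in Nr4a2 at -200, -144, -123 and -111, and in Nr4a3 at -231, -213, -205 and -147. Of 32851 promoter windows of the same length, 20.8% held at least 1 half-site and 0.231% held at least 4. The other members had 13 windows, since some genes have several starts, and Nr3c1 was without one. Among these, the Nr1h2 window and 2 of the 4 Rara windows held 1 half-site each, and the rest held 0. Those at 0 include every window of Nr1h3, Pparg and Vdr, although these genes were also called higher in cord monocytes. The full element TGACGTCA, found in 1.79% of all windows on either strand, was in no window of a member, nor was the AP-1 site TGANTCA (7.81%) or the CArG box (1.63%). The NBRE AAAGGTCA, the element that NR4A proteins bind as monomers, was in 1.51% of windows and in 1 of the 2 Rxra windows. It contains the nuclear receptor half-site AGGTCA (16.3%). A match of letters shows no binding. The genes were picked with their levels known and the windows were not matched for base composition, so these shares test no link to expression.

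Nr4a1, also called Nur77, is required for the patrolling Ly6Clow monocytes of blood. Its level was 41.1 TPM in marrow monocytes (1262 reads), 491 TPM in cord monocytes (19831 reads) and 357 TPM in APCs (16061 reads). Both spinal cord libraries were thus high, and their 95% intervals (485 to 498 and 352 to 363 TPM) did not overlap each other or that of marrow monocytes (38.8 to 43.4). The log2 ratio of spinal cord to marrow monocytes was 4.43 (98% interval, 4.34 to 4.53) by reads and 3.80 (3.70 to 3.90) by reads per effective length. APCs over cord monocytes gave -0.45 (-0.49 to -0.42), which was not called. By TPM, Nr4a1 ranked 349th of all common genes in cord monocytes and 3452nd in marrow monocytes.

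Nr4a2, or Nurr1, is best known for its role in dopaminergic neurons and is an early response gene in myeloid cells. Its level was 3.78 TPM in marrow monocytes (72 reads), 263 TPM in cord monocytes (6543 reads) and 111 TPM in APCs (7019 reads). The log2 ratio of the monocyte libraries was 6.95 (6.57 to 7.37) by reads and 6.33 per effective length, called in both. Between cord monocytes and APCs the answer depended on the scale. By reads the ratio was -0.05 (-0.10 to 0.01), and by reads per effective length it was -1.17 (-1.22 to -1.11), which was called lower. APCs over marrow monocytes were at 6.92 and 5.20 on these scales.

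The effective length given to Nr4a2 was 892 bases in marrow monocytes, 1286 in cord monocytes and 3041 in APCs. In GENCODE M21 the gene has 3 coding transcripts of 2400 to 3568 bases and 3 others of 182 to 3123 bases. The mean transcript length was 1074 and 1497 bases in the monocyte libraries, under the shortest coding transcript, and 3291 bases in APCs. Whether the smaller TPM of Nr4a2 in APCs comes from the transcript set was not tested. Nr4a1 had effective lengths of 1439, 2083 and 2155 bases in the same order, so that its length differed mainly between the monocyte libraries. Nr4a3 had 4916, 4832 and 5247 bases.

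**Figure D3:**
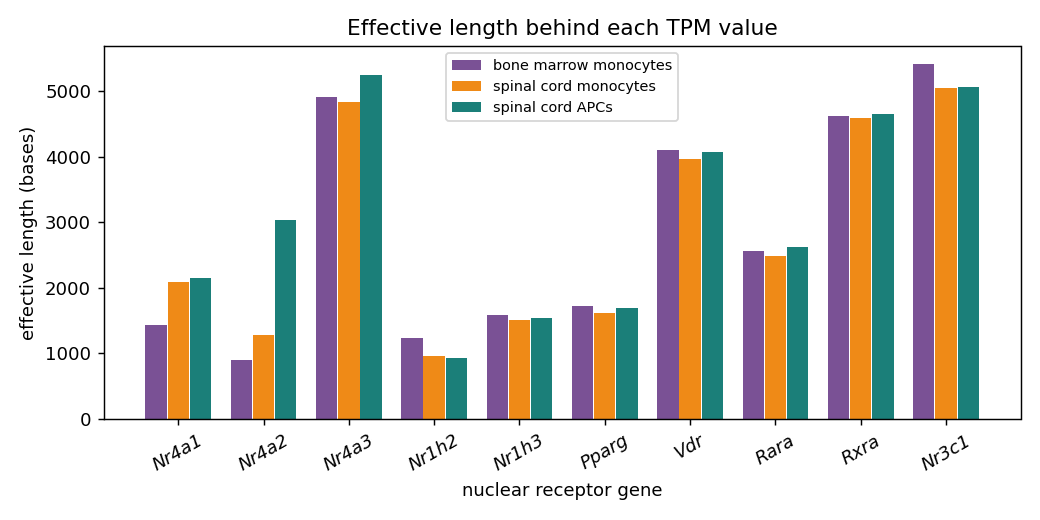
Effective length in bases that the authors' quantification gave to each receptor gene in each library (bars start at 0). Nr4a2 goes from 892 bases in marrow monocytes to 3041 in APCs, a wider range than that of any other gene shown.

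Nr4a3, or NOR1, was nearly silent in the bone marrow. It was at 0.229 TPM in marrow monocytes (24 reads, 95% interval 0.154 to 0.340), 96.7 TPM in cord monocytes (9051 reads) and 157 TPM in APCs (17182 reads). Nr4a3 was thus highest in APCs, whereas Nr4a1 was highest in cord monocytes. The log2 ratio of spinal cord to marrow monocytes was 8.98 (8.35 to 9.71), the largest of the 10 receptors. APCs over cord monocytes gave 0.78 (0.73 to 0.82) on both scales, whose interval stayed within 2-fold. Accordingly, the TPM of Nr4a1 was 180 times that of Nr4a3 in marrow monocytes, 5.08 times in cord monocytes and 2.28 times in APCs. The ratio of Nr4a2 to Nr4a3 was 16.6, 2.72 and 0.705, and carries the length difference of Nr4a2.

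Nr1h2 and Nr1h3 encode the LXRs, of which the first is found in most cells and the second mainly in macrophages, liver and fat. Nr1h2 (chromosome 7, 44549616 to 44553951, minus strand) was at 72.3 TPM in marrow monocytes (1916 reads), 115 TPM in cord monocytes (2131 reads) and 102 TPM in APCs (1997 reads). Its levels stayed within 2-fold of each other, with log2 ratios of 0.61 (0.51 to 0.72) and -0.24 (-0.35 to -0.14) in the 2 steps, neither called. Nr1h3 (chromosome 2, 91184061 to 91202834, minus strand) was at 0.503 TPM in marrow monocytes (17 reads), 11.5 TPM in cord monocytes (338 reads) and 13.9 TPM in APCs (448 reads). It was called higher in cord monocytes, with a log2 ratio of 4.72 (3.97 to 5.61), and APCs differed from them by 0.26 (0.02 to 0.50). Nr1h2 exceeded Nr1h3 in every library, by 144 times in marrow monocytes, 9.94 times in cord monocytes and 7.37 times in APCs.

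Pparg (chromosome 6, 115360951 to 115490399, plus strand) had the lowest level of the 10 receptors in both spinal cord libraries. It was at 0.951 TPM in marrow monocytes (35 reads), 6.16 TPM in cord monocytes (193 reads) and 7.31 TPM in APCs (258 reads). The log2 ratio of the monocyte libraries was 2.90 (2.32 to 3.54), called higher, and that of APCs over cord monocytes was 0.27 (-0.05 to 0.59). Ppard, the widely expressed relative, was at 23.7, 31.9 and 23.3 TPM in marrow monocytes, cord monocytes and APCs.

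Vdr (chromosome 15, 97854425 to 97910630, minus strand) went from below the 3 TPM line to a moderate level. It was at 1.95 TPM in marrow monocytes (171 reads), 35.6 TPM in cord monocytes (2733 reads) and 29.4 TPM in APCs (2492 reads). The log2 ratio of spinal cord to marrow monocytes was 4.45 (4.20 to 4.72). The ratio of APCs to cord monocytes was -0.28 (-0.37 to -0.19) and not called. Over the 3 libraries and 20 other active receptor genes, the pattern nearest to Vdr by reads was that of Nr4a1, at a distance of 0.17 in the pair of log2 ratios. By reads per effective length it was that of Nr1h3, at 0.61.

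Rxra, the partner of the LXRs, PPARs, RARs and Vdr, had no called difference. It lies on chromosome 2 (27676440 to 27762957, plus strand) and was at 26.1 TPM in marrow monocytes (2578 reads), 17.8 TPM in cord monocytes (1585 reads) and 18.9 TPM in APCs (1830 reads). Its log2 ratios were -0.24 (-0.35 to -0.14) for the monocyte libraries and 0.06 (-0.06 to 0.18) for APCs over cord monocytes. Rxrb, its paralog, was at 52.9, 31.0 and 21.8 TPM, so that Rxrb exceeded Rxra by 2.03, 1.74 and 1.16 times. Rxra was 27.4 times Pparg in marrow monocytes and 2.89 and 2.58 times in the spinal cord libraries.

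Rara, which encodes retinoic acid receptor alpha, was the only member called lower in APCs than in cord monocytes by reads. It lies on chromosome 11 (98927818 to 98974942, plus strand) and was the most abundant of the 10 in marrow monocytes, at 87.0 TPM (4767 reads). It was at 58.1 TPM in cord monocytes (2810 reads) and 26.3 TPM in APCs (1439 reads), with intervals that did not overlap. The monocyte libraries differed by -0.30 (-0.38 to -0.22), which was not called. APCs over cord monocytes were at -1.11 (-1.22 to -1.004), an interval that ended just beyond 2-fold. By reads per effective length the ratio was -1.06 (-1.17 to -0.95) and the call was lost. Scaling by total reads gave -1.08 and also lost it. APCs over marrow monocytes were at -1.40 (-1.50 to -1.30), called lower. Rarg, the gamma form, was lower already in cord monocytes, at 52.2, 14.4 and 12.3 TPM with a first log2 ratio of -1.60 (-1.75 to -1.45).

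Nr3c1 (chromosome 18, 39410545 to 39519421, minus strand) was at 47.3 TPM in marrow monocytes (5476 reads), 30.5 TPM in cord monocytes (2984 reads) and 26.5 TPM in APCs (2801 reads). Marrow monocytes thus had the highest level. The log2 ratios were -0.42 (-0.49 to -0.34) and -0.24 (-0.33 to -0.15), and none was called. The medians over all active genes were -0.17 and -0.03 in these steps. Nr3c1 was 24.3 times Vdr in marrow monocytes but 0.856 and 0.903 times Vdr in cord monocytes and APCs.

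In marrow monocytes the receptors stood in the order Rara, Nr1h2, Nr3c1, Nr4a1, Rxra, Nr4a2, Vdr, Pparg, Nr1h3 and Nr4a3 by TPM. The 95% intervals of Pparg and Nr1h3 overlapped, as did those of Nr1h3 and Nr4a3. In cord monocytes the order was Nr4a1, Nr4a2, Nr1h2, Nr4a3, Rara, Vdr, Nr3c1, Rxra, Nr1h3 and Pparg, and no neighbours overlapped. In APCs it was Nr4a1, Nr4a3, Nr4a2, Nr1h2, Vdr, Nr3c1, Rara, Rxra, Nr1h3 and Pparg, and only Nr3c1 and Rara overlapped. The place of Nr4a2 in cord monocytes rests on its effective length there, which is described above. At the effective length of the APC library, a setting chosen after seeing the data, its level would be 111 TPM, which falls within the interval of Nr1h2 (109.8 to 119 TPM). The nearest pattern was the same gene by reads and by reads per effective length for 5 of the 10 receptors. Nr1h2 was nearest to Ppard on both scales (0.19 and 0.38) and Nr1h3 to Vdr (0.60 and 0.61). Nr4a2 was nearest to Nr4a3 by reads (2.19) but to Vdr by reads per effective length (2.15), and Nr3c1 to Rxrb (0.14) but to Nr2f6 (0.10).

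Against the whole superfamily of 49 genes, the 10 receptors held most of the transcripts in the spinal cord. Summed over the superfamily, the level was 497 TPM in marrow monocytes, 1291 TPM in cord monocytes and 970 TPM in APCs. The 10 members made up 56.6%, 87.1% and 87.6% of these sums. Nr4a1, Nr4a2 and Nr4a3 together were at 45.1, 851 and 625 TPM, which was 9.07%, 65.9% and 64.4% of the superfamily. The TPM of Nr4a2 carries its length difference, and without it the sums of Nr4a1 and Nr4a3 were 41.3, 588 and 515 TPM, or 8.37%, 57.2% and 59.9% of the rest of the superfamily, a setting also chosen after seeing the data. The other 7 members summed to 236, 274 and 225 TPM. The number of superfamily genes over 3 TPM was 15 in marrow monocytes and 21 in each spinal cord library, and 18, 12 and 13 genes had 0 reads.

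**Figure D4:**
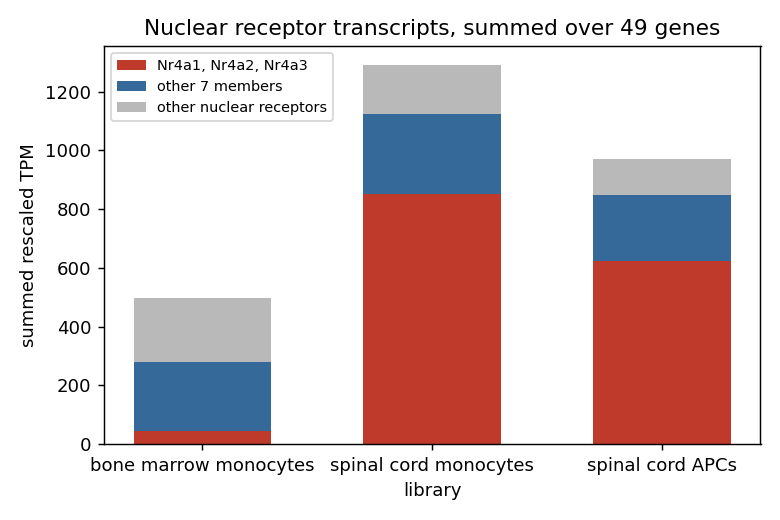
Summed rescaled TPM of 49 nuclear receptor genes in each library, split into Nr4a1 to Nr4a3 (red), the other 7 members (blue) and the remaining 39 genes (grey); bars start at 0 and carry no error, with 1 library each. The red part goes from 45.1 to 851 and 625 TPM, while the blue part stays between 225 and 274. The red part includes Nr4a2, whose effective length differs between libraries.

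Among the 39 superfamily genes outside the members, 11 were active. Of these, 2 were called higher in cord monocytes and 1 lower, which is near the 13.6% and 11.0% over all genes, with a median log2 ratio of -0.52. By reads per effective length 3 were higher, the other being Nr1d2, a relative of Nr1d1, at 1.31 against 0.95 by reads. Nr1d1 (Rev-erb alpha, a repressor of the circadian clock) was at 0.424, 4.43 and 3.14 TPM in marrow monocytes, cord monocytes and APCs, with a first log2 ratio of 3.92 (3.17 to 4.80). Rora, which opposes it at the same elements and is also expressed in T cells, was at 1.23, 4.94 and 6.68 TPM, with a ratio of 2.03 (1.78 to 2.29). The gene called lower was Rarg. In the step from cord monocytes to APCs, 0 of the 11 were called, beside 1.94% higher and 1.66% lower over all genes. These shares apply to every list below in that step. The lowest log2 ratio of the 11 was -1.02, with an interval not wholly past 2-fold. The study lists Esrra, with Rara, among transcription factors reduced in this step. Esrra, the most abundant of the 11 in cord monocytes, was not called here.

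Of the proteins that receptors recruit, most differed by less than 2-fold. Among 7 corepressor genes, 1 was called higher in cord monocytes and 0 lower, with a median of -0.69, beside 13.6% higher and 11.0% lower over all genes. Nrip1 (RIP140), the one called, was at 10.3, 46.2 and 40.7 TPM, with a log2 ratio of 2.09 (1.99 to 2.19). Ncor1, the most abundant, was at 126, 64.2 and 71.2 TPM (-0.76, not called). Among 10 active coactivator genes, 1 was called higher and 0 lower, with a median of -0.10. This was Ppargc1b (PGC-1 beta) at 1.05, 6.91 and 6.87 TPM (2.95, interval 2.55 to 3.38). Prmt1, the most abundant, was at 138, 98.3 and 87.2 TPM. No gene of either list was called between cord monocytes and APCs.

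Genes that make or remove the ligands were few above 3 TPM. Ch25h, whose product makes the oxysterol 25-hydroxycholesterol, had 0 reads in marrow monocytes, 169 in cord monocytes and 170 in APCs (7.85 and 7.17 TPM), and was at least 77.5-fold higher in cord monocytes when the bone marrow library is set to a floor of 3 reads. It was the 1 gene called of 3 active oxysterol genes, beside 13.6% called higher and 11.0% lower over all genes. The same shares apply to the vitamin D and retinoid counts of this step below. Cyp27a1, which makes 27-hydroxycholesterol and hydroxylates vitamin D, was at 41.0, 17.6 and 10.4 TPM, with an uncalled first ratio of -0.93. Neither of the 2 active vitamin D metabolism genes was called in that step. Of 4 active retinoid genes 1 was called higher: Fabp5, which carries fatty acids and retinoic acid, at 70.4, 280.1 and 559 TPM (2.30, interval 2.18 to 2.41). APCs over cord monocytes gave 0.97 (0.90 to 1.03) for Fabp5 by reads, and by reads per effective length 1.08, which was called.

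Among 7 active genes for glucocorticoid activation and the receptor's chaperones, 1 was called higher and 1 lower in cord monocytes, which is near the 13.6% and 11.0% over all genes, with a median of -0.04. Hsd11b1, which regenerates active glucocorticoid from its inert form, was at 46.9, 7.86 and 8.64 TPM in marrow monocytes, cord monocytes and APCs (-2.36, interval -2.63 to -2.11). Hsp90aa1, an inducible HSP90 that holds the unliganded receptor, was at 220.0, 854 and 512 TPM (2.17, interval 2.13 to 2.21). Hsp90ab1 was the most abundant in each library, at 661 to 1265 TPM.

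Of 15 active LXR targets, 8 were called higher and 2 lower in cord monocytes, beside 13.6% and 11.0% over all genes, with a median log2 ratio of 1.22. By reads per effective length 7 were higher, as Abcg1, a second cholesterol pump named here after its value was seen, went from 1.22 to 0.89. One of the 8 was Nr1h3 itself, and without it the counts were 7 and 2 of 14, with a median of 0.77. Abca1, the cholesterol efflux pump, was at 1.98, 48.8 and 70.5 TPM (4.85, interval 4.68 to 5.02). Mertk, a receptor for apoptotic cells and also on the macrophage marker list above, was at 0.754, 27.8 and 51.2 TPM (5.90, interval 5.45 to 6.41). Apoe, which carries cholesterol, was the most abundant at 1538, 8392 and 10457 TPM (2.64, interval 2.62 to 2.67). In contrast, Smpdl3a (a phosphodiesterase) was at 793, 219.6 and 173 TPM (-1.55) and Lpl (lipoprotein lipase) at 65.5, 23.2 and 16.4 TPM (-1.21), both called lower. The listed genes therefore did not go one way. Whether each of them, Smpdl3a included, answers to LXRs in mouse monocytes was not tested. No LXR target was called between cord monocytes and APCs.

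Of 6 active PPAR targets in the first step, 3 were called higher and 1 lower, beside 13.6% and 11.0% over all genes, with a median of 0.87. Hilpda, an inhibitor of fat breakdown, was at 3.43, 162 and 159 TPM (5.82, interval 5.38 to 6.30), and Cd36, a fatty acid transporter, at 1.49, 11.7 and 31.5 TPM (3.06, interval 2.66 to 3.49). Plin2, which coats fat droplets, was the most abundant at 233, 566 and 320.2 TPM. Cpt1a, the entry enzyme of mitochondrial fat oxidation, was called lower at 94.96, 35.9 and 39.7 TPM (-1.09, interval -1.17 to -1.02). Between cord monocytes and APCs, 0 of 8 were called by reads. By reads per effective length 1 was called higher, Cd36 at 1.51 against 1.06 by reads.

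Few retinoic acid targets were over 3 TPM, with 3 of 9 active in each comparison. Tgm2 (transglutaminase 2) was at 0.926 TPM in marrow monocytes (66 reads), 1415 TPM in cord monocytes (90327 reads) and 510.3 TPM in APCs (35595 reads). Its log2 ratios were 10.86 (10.47 to 11.29), called higher, and -1.49 (-1.51 to -1.47), called lower. Rara and Tgm2 were thus both lower in APCs than in cord monocytes, although Rara was not called different between the monocyte libraries. The Rara call in APCs was lost by total reads and by reads per effective length. A link between these genes was not tested. Rarg, itself a target, was called lower as given above, and Dhrs3, a retinal reductase, was at 64.3, 86.8 and 107 TPM and not called.

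The vitamin D list gave little to set beside Vdr. Of its 4 genes, Cyp24a1, the most responsive target, had 0 reads in every library, as did Trpv6 and S100g, which act in gut and kidney. Spp1 (osteopontin), which has many other regulators, was at 7.56, 749 and 939 TPM (6.91, interval 6.67 to 7.16).

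Of 13 active glucocorticoid targets, 8 were called higher and 4 lower in cord monocytes, beside 13.6% and 11.0% over all genes, with a median of 2.03. Mt2 (a metallothionein) had 3 reads in marrow monocytes, 262 in cord monocytes and 452 in APCs (6.62, interval 5.15 to 8.78, and 5.89 per effective length). Sgk1, a kinase, was at 58.6, 1405 and 1785 TPM (5.05, interval 4.97 to 5.12), and Zfp36, which destabilizes cytokine mRNAs, was the most abundant in cord monocytes at 1703 TPM. The genes called lower were Zbtb16, Anxa1, Tsc22d3 and Fkbp5, of which the latter 2 are named after their values were seen. Anxa1 (annexin A1) was at 776, 163 and 97.99 TPM (-1.99, interval -2.05 to -1.92), and Zbtb16, a transcription factor, at 5.76, 0.837 and 0.556 TPM (-2.60, interval -3.05 to -2.17). Tsc22d3 (GILZ), at 198, 61.1 and 60.3 TPM, had a ratio of -1.40 (-1.48 to -1.32). Fkbp5, at 157, 56.5 and 31.7 TPM, had -1.19 (-1.27 to -1.12). Of the genes called higher, Dusp1 and Zfp36 are also immediate early genes, and without them 6 were higher and 4 lower of 11. Between cord monocytes and APCs, 0 of 12 were called.

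**Figure D5:**
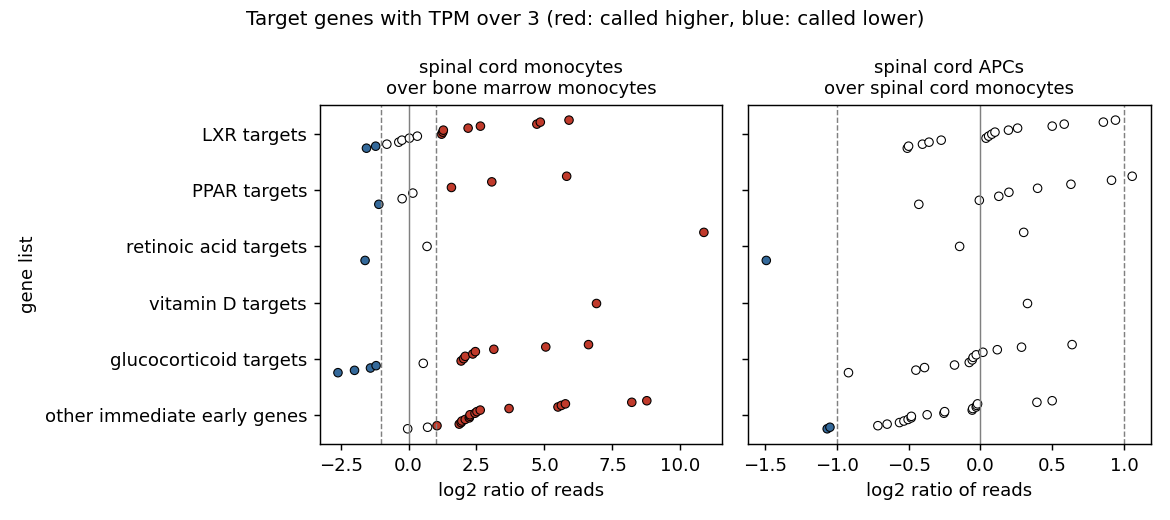
Log2 ratios of reads for active genes (TPM over 3) of the target lists and of other immediate early genes, one circle a gene, for cord monocytes over marrow monocytes (left) and APCs over cord monocytes (right); filled circles were called, dashed lines mark a 2-fold change, height within a list has no meaning, and the panels have different scales. At left glucocorticoid targets split into 8 higher and 4 lower and immediate early genes are higher in 17 of 19, while at right 3 circles are filled.

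NR4A genes belong to the immediate early genes, which cells transcribe within minutes of a stimulus without new protein. Of 19 other genes of this class, 17 were called higher in cord monocytes than in marrow monocytes and 0 lower, beside 13.6% and 11.0% over all genes, with a median of 2.26. By reads per effective length 16 were higher, as Klf4, a factor of monocyte development named after its value was seen, went from 1.05 to 0.95. Egr3 had 1 read in marrow monocytes, 530 in cord monocytes and 830 in APCs (8.76, interval 6.77 to 12.26). Egr2 was at 0.519, 169 and 156 TPM (8.21, interval 7.64 to 8.86). Fos, the most abundant in each library, was at 1665, 2143 and 1769 TPM and was not called (0.70, interval 0.68 to 0.72). The class was therefore not silent in marrow monocytes. Between cord monocytes and APCs the median was -0.37. Of the 19 genes, 2 were called lower and 0 higher, beside 1.66% and 1.94% over all genes. They were Ier5 (-1.07, interval -1.11 to -1.02), whose ratio per effective length of -0.96 was not called, and Atf3 (-1.05, interval -1.08 to -1.02). The part of the enzyme digestion at 37 °C, which only the spinal cord cells underwent, in the NR4A and other early genes cannot be told apart from the tissue.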

How the data were processed

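RNA-Seq libraries (paired-end, 50 bases) of 3 sorted populations were quantified by the authors with Salmon 0.14.1 on GENCODE transcripts of mm10, with the transcripts of each gene pooled. The deposited TPM values were divided by the authors by effective length and brought to a fixed sum. The deposited estimated counts of reads are not normalized, and they were rounded to whole reads here. TPM was rescaled to 1000000 over the 22238 common genes. The log2 ratio is the median of a gamma posterior of reads plus 1, after median-of-ratios scaling of each pair of libraries, with percentiles 1 and 99 as its interval, which restates the study's fold change definition without its tool. TPM carries a 95% Wilson interval, and the floor is 3 reads. PCR copies are not independent molecules. Total reads scaling would shift every log2 ratio by -0.16, 0.04 and -0.14 in spinal cord over bone marrow monocytes, APCs over spinal cord monocytes, and APCs over bone marrow monocytes.

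The members and the gene lists were chosen with earlier results of these data known. Of each list, the called genes with the largest log2 ratio (at most 2 a direction and step) and the most abundant gene of each library are named, and for a receptor the 1 active receptor nearest in both log2 ratios. Lcor and Ier2 were on the lists but did not match by name. Symbols came from GENCODE M21, which matched 99.0% of the common genes; promoters came from RefSeq (GRCm38.p6). On simulated data with 4-fold changes, 200 of 200 changed genes were recovered in each comparison, with 0 false calls. The simulated reads carried counting error alone, with no spread between libraries, and the changed genes were picked among well-covered ones. The simulation therefore checks the arithmetic only and cannot show how often calls err in these libraries or at few reads. The alternatives were total reads or TMM scaling, reads per effective length, TPM over 4 or no filter, a bound at 0.001, 0.5 reads added, an assumed spread of 0.2 or 0.4 between libraries, a plain 2-fold change, TPM as deposited, and TPM with a pseudocount of 1 or 0.1. R 4.3.3 with edgeR 4.0.16 gave the TMM factors, and all else was computed in Python 3.11.15 (scipy 1.17.1, numpy 2.4.6, pandas 2.3.3, matplotlib 3.10.9).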

Additional observations from a re-analysis of the deposited data

Results flagged for a closer look

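Gm13783, a non-coding gene that shares exon sequence with Nr1h3 on the same strand, is listed in the monocyte libraries but not in the transcript set of APCs, and entered no comparison. It had 6 estimated reads in spinal cord monocytes (0.573 TPM as deposited) and 1 in bone marrow monocytes, which is above the floor of 3 reads in the former. The split of reads between it and Nr1h3 was not tested.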

How the results depend on the processing

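No paired analysis was possible because each population is 1 library, and no replicate could be left out. Of 390 values (30 receptor ratios under 13 alternatives), 379 stayed called or stayed uncalled, 3 gained a call and 8 lost it. None changed direction while called, and direction was not compared where a ratio stayed uncalled. Those gained were Nr4a2 in APCs over spinal cord monocytes (-1.17 per effective length, -1.24 with either TPM pseudocount). Those lost were Rara in APCs over spinal cord monocytes (total reads, effective length, the bound at 0.001 and both spreads), Rara in APCs over bone marrow monocytes (both spreads) and Pparg in the monocyte comparison (spread 0.4). Rara or Nr4a2 set the receptors called in APCs over spinal cord monocytes: 1 as reported, 0 with total reads, the bound at 0.001 or either spread, and 2 with either pseudocount. Per effective length it stayed at 1, with Nr4a2 in place of Rara. For the superfamily that count of 1 became 0 in the same 4 cases, 2 without a filter or with a plain fold, and 3 with either pseudocount. Over all genes in spinal cord over bone marrow monocytes, 1369 higher became 2591 without a filter, 905 with spread 0.2 and 627 with spread 0.4, and 1104 lower became 460 and 228 with these spreads and 1890 and 2137 with pseudocounts of 1 and 0.1. In APCs over spinal cord monocytes, 189 higher became 389 (no filter), 87 and 43 (spreads), 331 (plain fold) and 351 (pseudocount 0.1); 162 lower became 324 (effective length), 288 (no filter), 35 and 14 (spreads), 293 (plain fold), 528 and 617 (pseudocounts). In APCs over bone marrow monocytes, 1430 higher became 2875 (no filter) and 727 (spread 0.4), and 1196 lower became 503 and 230 (spreads), 2433 and 2682 (pseudocounts). The share of calls that were higher went from 53.8% to 41.7% per effective length in APCs over spinal cord monocytes. With pseudocounts of 1 and 0.1 it was 41.0% and 39.4% (from 55.4%), 34.2% and 36.3% (from 53.8%), and 35.1% and 34.0% (from 54.5%) in the order above. The causes were not tested.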
